A study of Mus musculus with 6 samples.

Results

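Siglecs are cell-surface lectins that bind sialic acid, the sugar that caps many glycans of a cell's own surface. The 7 Siglec receptor genes described here are Siglec1, Siglece, Siglecf, Siglecg, Siglech, Cd22 and Cd33, taken by symbol from the 52550 genes of the deposited table, where each symbol had 1 entry. The study asked what culture medium of apoptotic chondrocytes, the cells of cartilage, does to macrophages. Bone marrow cells of C57BL/6 mice were freed of red cells and grown for 7 days with 25 ng/ml macrophage colony-stimulating factor. The resulting macrophages received medium of apoptotic chondrocytes (AC CM, 3 libraries) or medium of normal chondrocytes (C CM, 3 libraries). The sources used here give neither dose and duration of the medium nor the way chondrocyte death was induced.

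Most Siglecs carry a cytoplasmic motif called ITIM, which recruits the phosphatases SHP-1 and SHP-2 and dampens signals of other receptors. Siglec-H lacks it and pairs with the adaptor DAP12, and Siglec-1 is mainly an adhesion receptor of macrophages. Siglecs differ in the cells that carry them: Siglec-1 marks macrophages, CD22 and Siglec-G B cells, Siglec-F eosinophils and alveolar macrophages, Siglec-H plasmacytoid dendritic cells and microglia, Siglec-E neutrophils, monocytes and macrophages, and CD33 myeloid cells.

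All 7 genes passed the filter on low counts, and 4 of them were lower after AC CM while 0 were higher. Siglece fell 2.16-fold, Siglech 5.50-fold and Siglecf 9.51-fold, and Siglec1, by far the most abundant, fell 1.22-fold. The size for Siglecf is uncertain, as it had 50 counts in all after AC CM. Its adjusted p of 0.0477 (edgeR) lay just under the threshold, and it passed in 9 of 16 alternative fits. Siglecg and Cd22 were at lower values and Cd33 at a higher value after AC CM without passing the test. The quasi-likelihood test of edgeR covered 17863 genes, of which 26.5% passed at a Benjamini-Hochberg adjusted p under 0.05, 13.3% lower and 13.3% higher after AC CM. The median log2 fold change (AC CM over C CM) was -0.69 over the 7 Siglec genes and -0.0046 over all genes tested. Whether the libraries of each group stem from different mice or culture dishes is not in the labels, so p-values measure only the spread between these libraries, which may be technical.

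Libraries held 65630784 to 80105872 counted reads. The macrophage markers Lyz2 (lysozyme), Csf1r (the receptor for the growth factor in the culture) and Mrc1 (mannose receptor) stood at 10838, 2021 and 2798 CPM (counts scaled to library size) after AC CM and at 11435, 3317 and 1926 CPM after C CM. Of 10 macrophage markers 4 were lower, 1 higher and 5 did not pass. Hepatocyte transcripts set libraries apart: the albumin gene Alb had 38.1, 469 and 971 CPM in AC CM replicates 1, 2 and 3 and 30.1, 1.32 and 0.254 CPM in C CM replicates 1, 2 and 3. Of 9 hepatocyte markers tested 1 was lower and 8 did not pass, and of 6 chondrocyte markers tested 2 were higher. Every test was repeated on AC CM replicate 1 against all C CM libraries, where a single AC CM library is assumed to have the spread seen among the C CM ones, and calls lost there are named beside the genes. Mrc1 (adjusted p = 0.118) lost its call there. In these bulk samples, fewer cells of a type and less RNA per cell cannot be told apart.

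Siglecf, Siglecg, Cd33 and Siglece lie together on chromosome 7 (GRCm38), with Siglecf at 43351341 to 43359531 and Siglecg at 43408204 to 43418358 on the plus strand, Cd33 at 43524216 to 43544428 and Siglece at 43651070 to 43660161 on the minus strand. Cd22 (30865402 to 30880342, minus strand) and Siglech (55768178 to 55778925, plus strand) lie elsewhere on chromosome 7, and Siglec1 lies on chromosome 2 (131069220 to 131086765, minus strand). At both ends of the cluster a gene was called lower, Siglecf and Siglece, while Siglecg and Cd33 between them did not pass. Of 21 other genes in this stretch of 308821 bases, 5 were tested, 2 were lower and 0 higher. The lower ones, named after their values were seen, were Nkg7, a granule gene of natural killer and T cells, at a log2 fold change of -2.30 (SE 0.30), and the zinc finger gene Zfp658 at -0.87 (SE 0.14). Zfp658 did not pass with AC CM replicate 1 as the only AC CM library (adjusted p = 0.0652).

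The promoters of 6 of the genes, all but Siglec1, are in RefSeq's promoter table for GRCm38.p6. The stretches from 250 bases before the start up to the start were compared by local alignment. The best of the 15 pairings was between Siglecf, which fell, and Cd33, which did not pass. They shared 24 of 28 alignment columns (85.7%, with 1 gap). The pair is shown because 1 of these genes was called lower and the other was not, a difference that was itself not tested. Capitals mark the shared stretch. The RefSeq start of Cd33 lies inside the span that the deposited table gives for the gene.
Siglecf (chr7:43351091-43351340, plus strand): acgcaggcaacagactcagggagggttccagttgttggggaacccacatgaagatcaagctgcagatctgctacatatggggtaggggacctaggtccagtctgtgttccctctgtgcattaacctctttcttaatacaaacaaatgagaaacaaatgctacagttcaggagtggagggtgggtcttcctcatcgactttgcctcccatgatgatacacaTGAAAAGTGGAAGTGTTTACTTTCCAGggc
Cd33 (chr7:43533172-43533421, minus strand): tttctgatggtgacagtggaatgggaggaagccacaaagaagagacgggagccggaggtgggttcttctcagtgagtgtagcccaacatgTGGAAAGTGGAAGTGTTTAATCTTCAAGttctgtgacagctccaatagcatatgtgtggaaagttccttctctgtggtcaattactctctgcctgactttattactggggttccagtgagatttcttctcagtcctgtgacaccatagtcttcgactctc
The shared stretch holds GGAAGT, the core bound by ETS factors, in both genes, and 19.7% of 32851 promoter stretches of this length hold GGAAGT on either strand. It ends 17 bases before the start in Siglecf and 147 bases before it in Cd33.

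The promoters of Siglece and Siglech, which were called lower in 15 and 16 of 16 alternative fits, are shown for the same motifs. Capitals mark GAGGAA, a core of the myeloid factor PU.1, or GGAAGT, each on either strand, and the 2 motifs can share letters.
Siglece (chr7:43660162-43660411, minus strand): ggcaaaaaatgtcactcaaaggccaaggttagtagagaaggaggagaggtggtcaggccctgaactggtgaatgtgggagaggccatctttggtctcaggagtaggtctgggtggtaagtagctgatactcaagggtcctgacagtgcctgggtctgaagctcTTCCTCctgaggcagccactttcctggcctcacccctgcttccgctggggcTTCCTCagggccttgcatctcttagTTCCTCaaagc
Siglech (chr7:55767934-55768183, plus strand): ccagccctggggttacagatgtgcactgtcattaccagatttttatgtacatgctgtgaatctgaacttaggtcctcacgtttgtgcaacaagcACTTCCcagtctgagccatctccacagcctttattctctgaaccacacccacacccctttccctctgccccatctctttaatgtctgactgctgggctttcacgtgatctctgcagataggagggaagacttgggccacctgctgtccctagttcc
Siglece held 3 matches to GAGGAA, all on the reverse strand, and Siglech held 1 match to GGAAGT on the reverse strand. GAGGAA occurs in 23.3% of all promoter stretches of this length. It was not limited to genes called lower, with 1 match each in Siglecf and Cd33 and 2 in Siglecg at 1 of its starts. Cd22 and Siglech held 0. The interferon-stimulated response element, present in 3.0% of all stretches, had no match in the windows of these 6 genes. Siglec1 is not among them and was not searched. These matches describe the letters in the window and say nothing of binding.

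The levels of the 7 genes were set side by side as RPKM, the CPM divided by the length of the joined exons in kilobases. Siglec1 stood at 186 ± 2.39 RPKM after AC CM and 227 ± 16.4 RPKM after C CM (SD, n = 3 each). It made up 89.9% to 90.7% of the summed level of the 7 genes in the AC CM libraries and 90.3% to 92.0% in the C CM libraries. Cd22, at 8.83 ± 0.699 RPKM after AC CM and 9.75 ± 0.338 after C CM, and Cd33, at 8.78 ± 0.551 after AC CM and 7.19 ± 0.974 after C CM, formed the next tier. After AC CM these neighbours did not differ beyond their spread. Siglece followed at 1.66 ± 0.353 RPKM after AC CM and 3.58 ± 0.503 after C CM. Siglecg, Siglecf and Siglech stayed below 1 RPKM in every library.

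After C CM, Siglecf (0.775 ± 0.220 RPKM), Siglech (0.591 ± 0.133) and Siglecg (0.417 ± 0.139) changed places from library to library. After AC CM, Siglecg (0.259 ± 0.10 RPKM) stood above Siglech (0.107 ± 0.0534) and Siglecf (0.0819 ± 0.0790) in all 3 libraries. With the longest coding transcript as the length, chosen after seeing the data, Cd33 was at 11.9 and 9.75 and Cd22 at 11.2 and 12.4 RPKM after AC CM and C CM, so the same tiers held.

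**Figure D1:**
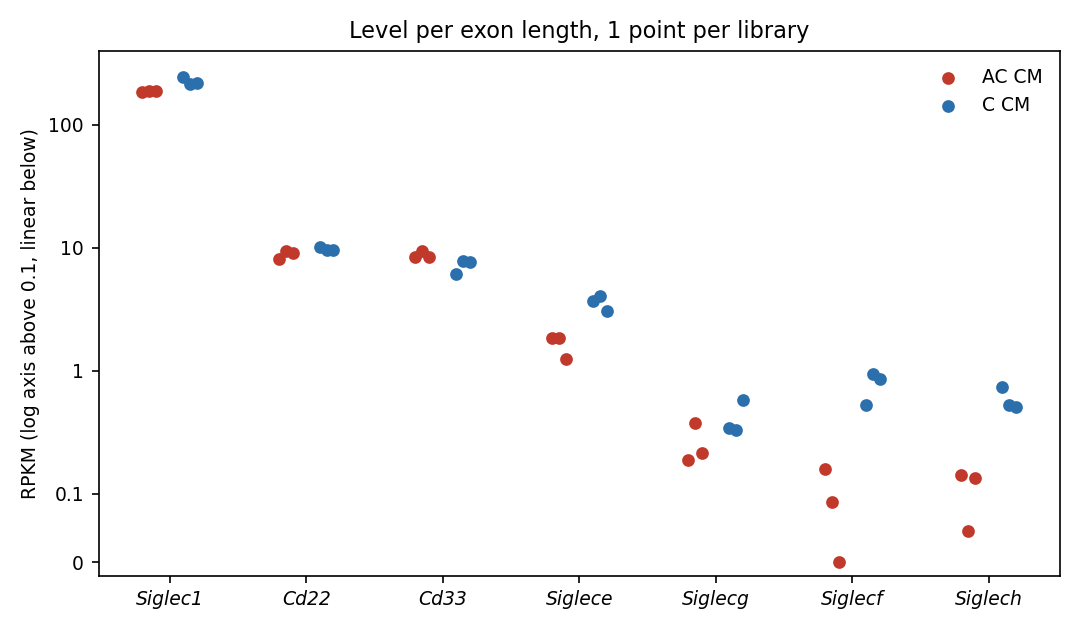
Level of the 7 Siglec receptor genes in RPKM, CPM divided by exon length in kilobases (log axis above 0.1 and linear below), with 1 point per library, AC CM in red and C CM in blue. Siglec1 lies near 186 and 227 RPKM, Cd22 and Cd33 below 11 RPKM, and Siglecf reaches 0 in 1 AC CM library.

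Siglec1 encodes sialoadhesin (CD169), a long receptor of macrophages that binds sialic acid in 2,3 linkage and is inducible by type I interferon. Its counts were 92169, 103594 and 106497 in AC CM replicates 1, 2 and 3 and 115283, 105746 and 104869 in C CM replicates 1, 2 and 3. Raw counts overlapped, but scaled to library size the groups did not, with 1308, 1339 and 1336 CPM after AC CM against 1758, 1546 and 1565 CPM after C CM. C CM replicate 1 was the highest library. On the log2 scale Siglec1 fell by 0.29 (SE 0.06, adjusted p = 0.0105, edgeR). It missed the threshold without AC CM replicate 1 (log2 fold change -0.28, adjusted p = 0.0535), without AC CM replicate 3 (-0.29, 0.0510) and with AC CM replicate 1 as the only AC CM library (-0.32, 0.250).

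Siglece encodes Siglec-E, an ITIM receptor that restrains myeloid cells. It had 242, 266 and 184 counts (3.43, 3.44 and 2.31 CPM) in AC CM replicates 1, 2 and 3 and 444, 511 and 377 counts (6.77, 7.47 and 5.63 CPM) in C CM replicates 1, 2 and 3. Every AC CM library lay below every C CM library, as was the case for 22.1% of all genes tested. The log2 fold change was -1.11 (SE 0.20, adjusted p = 0.00386). With AC CM replicate 1 as the only AC CM library, Siglece stood at -0.95 and missed the threshold (adjusted p = 0.0905).

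Cd33 encodes a myeloid Siglec whose mouse form lacks the typical ITIM of the human protein. Its counts were 4644, 5657 and 5225 in AC CM replicates 1, 2 and 3 and 3090, 4134 and 4022 in C CM replicates 1, 2 and 3. In CPM it stood at 65.9, 73.1 and 65.5 after AC CM against 47.1, 60.4 and 60.0 after C CM. The groups did not overlap, a separation in either direction found in 44.7% of all genes tested, and C CM replicate 1 was the lowest library. Its log2 fold change was 0.29 (95% interval 0.05 to 0.53 before adjustment), and the adjusted p of 0.0777 missed the threshold. DESeq2 called it (adjusted p = 0.0496).

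**Figure D2:**
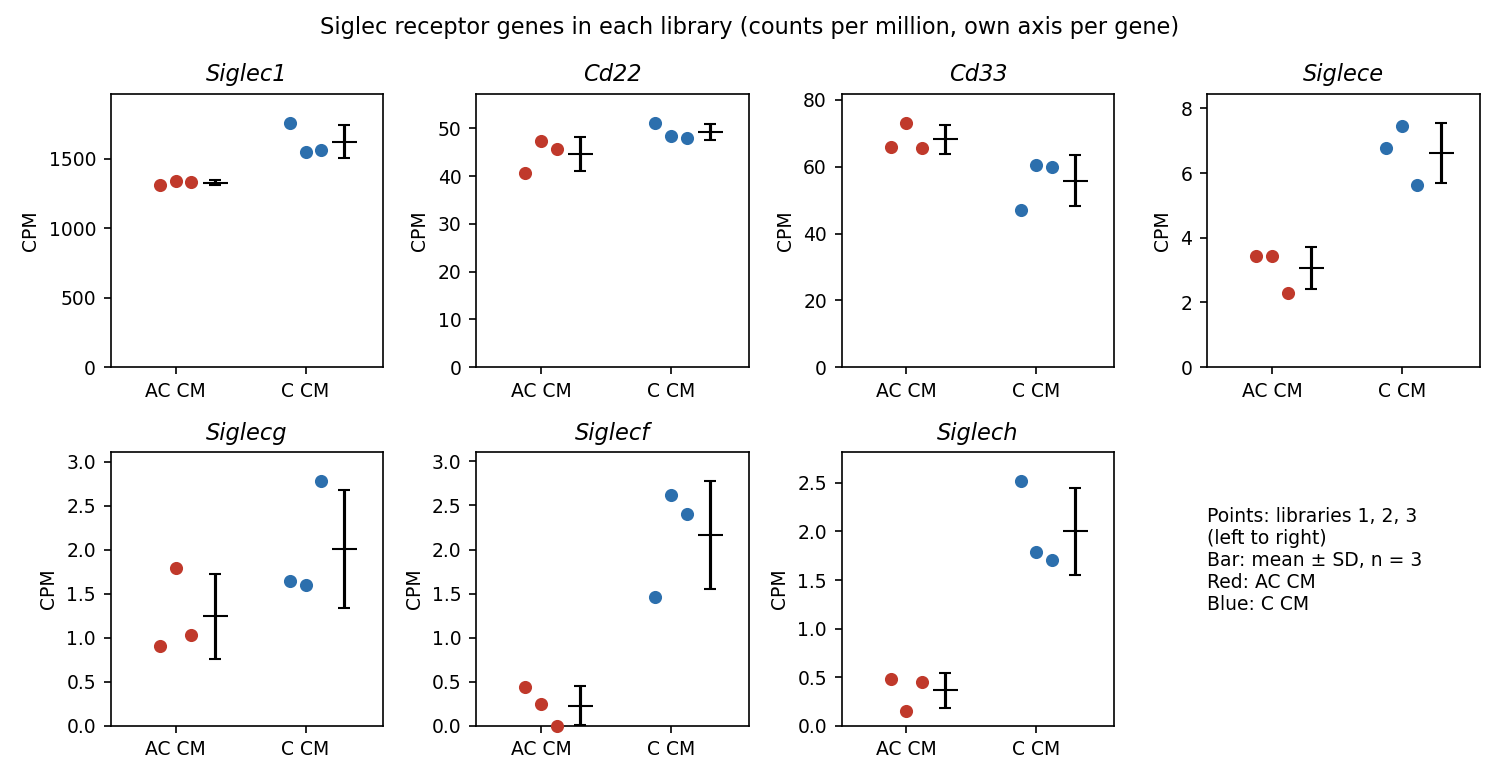
Level in CPM of each Siglec receptor gene, with its own linear axis from 0, for the 3 AC CM libraries (red, left) and the 3 C CM libraries (blue, right), and mean ± SD in black. The groups overlap for Siglecg and are apart for the other 6 genes, where 44.7% of all genes tested are apart, with Cd33 the only gene higher after AC CM.

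Cd22 encodes a B cell inhibitory Siglec that binds sialic acid in 2,6 linkage. It had 2861, 3666 and 3638 counts (40.6, 47.4 and 45.6 CPM) in AC CM replicates 1, 2 and 3 and 3353, 3307 and 3219 counts (51.1, 48.3 and 48.0 CPM) in C CM replicates 1, 2 and 3. The CPM ranges lay close together without overlapping. A log2 fold change of -0.14 (95% interval -0.33 to 0.04, adjusted p = 0.239) did not pass. The antisense gene Gm29439 lies within Cd22 and, at 3.16 CPM after AC CM and 3.24 CPM after C CM, held few reads next to it. Whether reads were counted by strand is not stated, so shared reads may not be separable.

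Siglecg encodes Siglec-G, an inhibitory receptor of B cells known to bind CD24. Its counts were 64, 139 and 82 in AC CM replicates 1, 2 and 3 and 108, 109 and 186 in C CM replicates 1, 2 and 3. The groups overlapped, at 0.908, 1.80 and 1.03 CPM after AC CM and 1.65, 1.59 and 2.78 CPM after C CM. At -0.69 on the log2 scale (95% interval -1.48 to 0.10, adjusted p = 0.185) it did not pass, and the interval also holds a fall of more than 2-fold.

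Levels of B cell genes are given beside Cd22 and Siglecg. Of 12 B cell markers 10 were tested, 8 were lower, 0 higher and 2 did not pass, with a summed level of 160 to 171 CPM after AC CM and 309 to 315 CPM after C CM. Cd37, which did not pass (adjusted p = 0.681, edgeR), averaged 125 CPM after AC CM and 120 CPM after C CM. Most of the sum after AC CM was thus Cd37, and the sum understates the fall of the markers called lower. Among these, Ighm averaged 21.1 CPM after AC CM and 151 CPM after C CM. The antigen receptor chain genes Cd79a and Cd79b stood at 0.157 ± 0.116 and 8.65 ± 0.122 CPM after AC CM and at 2.21 ± 0.418 and 20.5 ± 2.57 CPM after C CM. Cd22 thus stood at 44.5 ± 3.52 CPM after AC CM and 49.2 ± 1.70 CPM after C CM in the same libraries. The part of B cells in the values of Cd22 and Siglecg was not tested.

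Siglech encodes Siglec-H, which signals through the adaptor DAP12. It was counted 34, 12 and 36 times (0.483, 0.155 and 0.452 CPM) in AC CM replicates 1, 2 and 3 and 165, 122 and 114 times (2.52, 1.78 and 1.70 CPM) in C CM replicates 1, 2 and 3. The groups were well apart, and AC CM replicate 2 was the lowest library. The log2 fold change was -2.46 (SE 0.43, adjusted p = 0.00324), and Siglech passed under all 16 alternatives run, with values from -2.72 to -2.05.

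Of 12 markers of plasmacytoid dendritic cells, which carry Siglec-H, 10 were tested, 3 were lower, 0 higher and 7 did not pass. Their summed level was 823 to 869 CPM after AC CM and 1102 to 1236 CPM after C CM, mostly from Bst2 and Irf8, which macrophages also express. Bst2, an antiviral membrane protein gene, was at -0.60 (SE 0.10) and the transcription factor gene Irf8 at -0.46 (SE 0.08), and neither passed with AC CM replicate 1 alone (adjusted p = 0.136 and 0.221). The other marker called lower, the transcription factor gene Spib, was named after its values were seen. It fell furthest of those called, at -3.32 (SE 0.33), and stood at 0.363 ± 0.154 CPM after AC CM and 3.64 ± 0.218 CPM after C CM. Whether its reads came from plasmacytoid dendritic cells was not tested. Lair1, of the same list, was at 0.12 (SE 0.11, adjusted p = 0.505, edgeR) and did not pass. Tcf4, the factor that defines these cells, stood at 80.2 ± 23.2 CPM after AC CM and 110 ± 5.98 CPM after C CM (log2 fold change -0.46, adjusted p = 0.174), and passed by DESeq2 (adjusted p = 0.0364). Against C CM, AC CM replicate 1 alone put Tcf4 at -1.04 (adjusted p = 0.00567). Their homing receptor gene Ccr9 was at 0.512 ± 0.0845 CPM after AC CM and 1.03 ± 0.406 CPM after C CM (adjusted p = 0.0998), and passed at -1.28 (adjusted p = 0.0328) once C CM replicate 1 was left out. By DESeq2, 5 of the markers passed. Of 6 microglia markers, which summed to 362 to 396 CPM after AC CM and 468 to 491 CPM after C CM, 1 was higher, 2 lower and 3 did not pass, and Gpr34, a lysophospholipid receptor gene, was at -2.53 (SE 0.14). The part of these cells in the value of Siglech was not tested.

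Siglecf encodes Siglec-F, the inhibitory receptor used to recognise eosinophils and alveolar macrophages. Reads numbered 31, 19 and 0 in AC CM replicates 1, 2 and 3, or 50 in all, and 96, 179 and 161 in C CM replicates 1, 2 and 3, or 436 in all. In CPM this was 0.440, 0.246 and 0 after AC CM against 1.46, 2.62 and 2.40 after C CM, and the count of 0 allows up to 0.0376 CPM, for counting error only. The groups did not overlap, but AC CM libraries differed widely among themselves. The log2 fold change was -3.25 (SE 0.95, 95% interval -5.53 to -0.97), and the adjusted p of 0.0477 lay just under the threshold. The call was lost without AC CM replicate 2 (adjusted p = 0.146), without C CM replicate 1 (0.107), 2 (0.122) or 3 (0.120), without a filter on low counts (0.0882), by DESeq2 (0.0561) and with a replicate block (0.139), at log2 fold changes from -3.60 to -3.09. Its size also moved where the call held, to -4.13 without AC CM replicate 1 (adjusted p = 0.0376) and to -4.64 by limma-voom (0.0218). With AC CM replicate 3, the library at 0, left out, Siglecf stood at -2.65 (adjusted p = 0.00506), and with AC CM replicate 1 as the only AC CM library it passed too (adjusted p = 0.0357).

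Defining eosinophil genes were at or near 0, apart from the chemokine receptor gene Ccr3. The granule genes Epx (eosinophil peroxidase) and Ear6 had 0 counts in every library, Il5ra, the interleukin 5 receptor chain, had none after AC CM and at most 0.161 CPM after C CM, and Prg2 (major basic protein) stood at 0.201 ± 0.189 CPM after AC CM and 0.266 ± 0.216 CPM after C CM. Eosinophil markers summed to 22.7 to 23.7 CPM after AC CM and 12.0 to 19.1 CPM after C CM. Of the 7 listed 2 were tested and 1, Ccr3, was higher, at 23.1 CPM after AC CM and 15.6 CPM after C CM, and makes up nearly all of that sum. Its log2 fold change was 0.57 (SE 0.15), a call lost without AC CM replicate 1, 2 or 3 (adjusted p = 0.0652 to 0.0787) or with AC CM replicate 1 alone (0.237). Of 8 alveolar macrophage markers 6 were tested, 3 were lower, 0 higher and 3 did not pass. The chitinase-like gene Chil3 was at -2.20 (SE 0.11), the scavenger receptor gene Marco at -1.32 (SE 0.18) and the ribonuclease gene Ear2 at -2.55 (SE 0.27). The 3 that did not pass had values above 0, Fabp1 at 3.46 (SE 1.94, adjusted p = 0.271), Krt19 at 0.78 (SE 0.36, 0.152) and Slc39a2 at 0.53 (SE 0.67, 0.613). The summed level of that list was 43.9 to 50.7 CPM after AC CM and 159 to 203 CPM after C CM, of which Chil3 alone averaged 36.4 CPM after AC CM and 167 CPM after C CM. The part of these cells in the value of Siglecf was not tested.

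**Figure D3:**
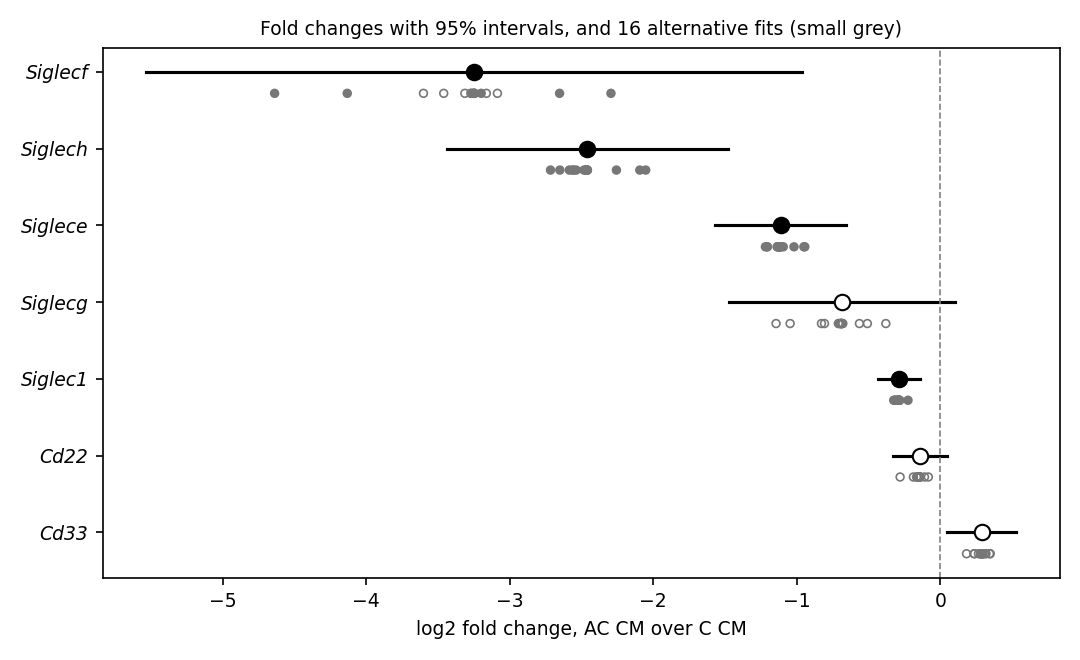
Log2 fold change (AC CM over C CM) of each Siglec receptor gene with its 95% interval before adjustment; filled black points passed at an adjusted p under 0.05. Small grey points are the 16 alternative fits, filled where the gene passed, and none crosses 0; Siglech passed in 16 of them, Siglece in 15, Siglec1 in 13 and Siglecf in 9.

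Markers of granulocytes and monocytes, cells that carry Siglec-E, are given beside Siglece. Of 12 neutrophil and granulocyte precursor markers 11 were tested, 9 were lower, 0 higher and 2 did not pass, with 188 to 204 CPM in sum after AC CM and 862 to 1011 CPM after C CM. S100a8 and S100a9, the subunits of calprotectin, were at -2.57 (SE 0.15) and -2.51 (SE 0.11), and the granule gene Ngp at -2.57 (SE 0.08). Of 8 monocyte markers 4 were lower, 0 higher and 4 did not pass, with the chemokine receptor gene Ccr2 at -1.62 (SE 0.12) and the clotting factor gene F13a1 at -1.66 (SE 0.13), and 7 passed by DESeq2. Of those that did not pass with edgeR, Fn1 (fibronectin) was at -0.16 (adjusted p = 0.102) and Vcan (versican) at 0.27 (adjusted p = 0.0551). Monocyte markers summed to 1163 to 1230 CPM after AC CM and 1665 to 1820 CPM after C CM. Of 8 conventional dendritic cell markers tested 7 were lower, and of 5 mast cell and basophil markers tested 3 were lower. Their part in the value of Siglece was not tested.

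**Figure D4:**
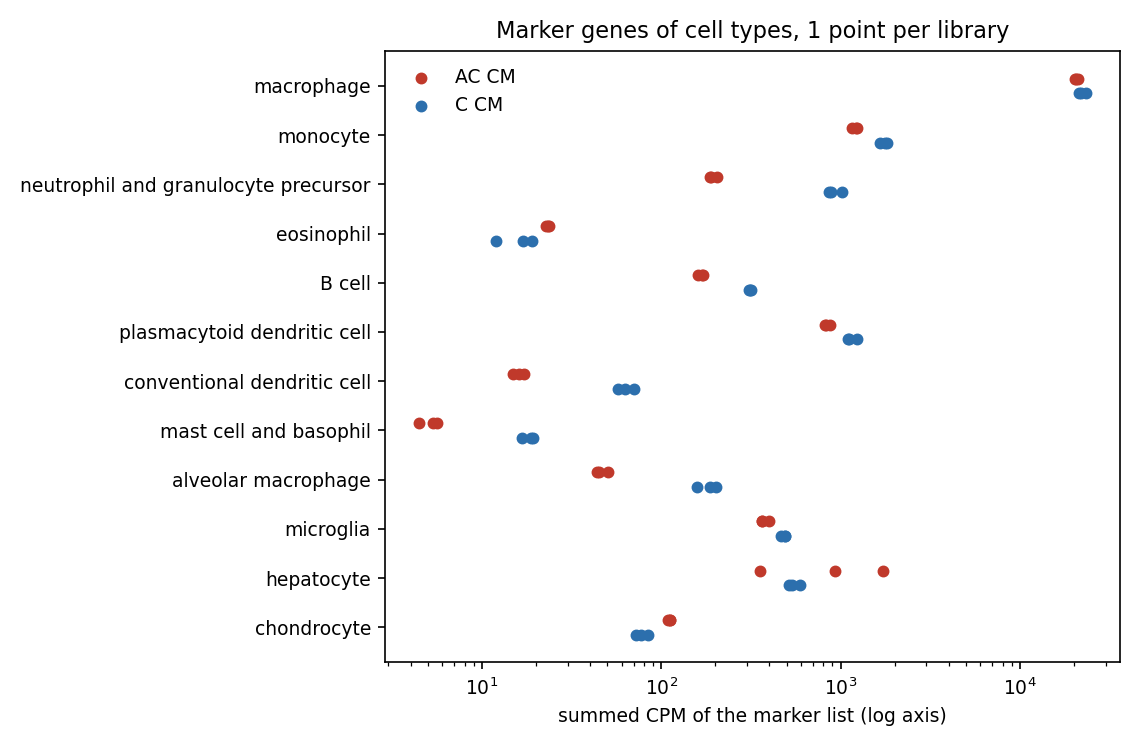
Summed CPM of each list of cell type markers (log axis) with 1 point per library, AC CM in red and C CM in blue. Neutrophil markers sum to 188 to 204 CPM after AC CM and 862 to 1011 CPM after C CM, while macrophage markers sum to 20186 to 21121 CPM after AC CM and 21444 to 23435 CPM after C CM, and hepatocyte markers spread over the AC CM libraries.

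Other lists bear on how Siglecs work. The counts called in them stand beside 26.5% of all genes tested that passed in either direction, and no list was tested as a set. Of 10 genes listed under ITIM phosphatases and kinases 2 were higher, 2 lower and 6 did not pass. Ptpn6 and Ptpn11, which encode SHP-1 and SHP-2, had log2 fold changes of -0.01 (SE 0.08, adjusted p = 0.926) and 0.03 (SE 0.06, adjusted p = 0.733). Among Src family kinases, which phosphorylate ITIMs, Lyn rose by 0.29 (SE 0.06), Fgr was at -1.44 (SE 0.12) and Src at -0.60 (SE 0.14). Inpp5b, an inositol phosphatase gene on the list that is not known to act at ITIMs, rose by 0.30 (SE 0.07). Inpp5d, which encodes the ITIM-linked phosphatase SHIP-1, was at -0.08 (SE 0.07, adjusted p = 0.455) and did not pass. Without AC CM replicate 1, Lyn (adjusted p = 0.0520) and Inpp5b (0.0615) lost their calls and the list held 2 calls. Inpp5b also lost it without AC CM replicate 3 (0.0573) and Src without AC CM replicate 2 (0.0618). With AC CM replicate 1 alone Lyn (0.186), Inpp5b (0.234) and Src (0.243) did not pass.

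Of 7 genes for the DAP12 and DAP10 adaptors and their partners 1 was higher, 1 lower and 5 did not pass. Tyrobp, which encodes DAP12, stood at 674 ± 23.7 CPM after AC CM and 642 ± 48.4 CPM after C CM (log2 fold change 0.07, adjusted p = 0.506), so this partner of Siglec-H did not pass where Siglech fell. Syk, the kinase that acts after DAP12, fell to 270 ± 3.68 CPM after AC CM, against 413 ± 9.87 CPM after C CM (log2 fold change -0.61, SE 0.06, adjusted p = 9.4e-05). Fcer1g, an Fc receptor adaptor gene, rose by 0.26 (SE 0.07). That call was lost without AC CM replicate 1 (adjusted p = 0.119), 2 (0.0666) or 3 (0.0555) or C CM replicate 2 (0.0646) or 3 (0.0743), which left 1 call in the list except without C CM replicate 2, where Vav1, an exchange factor gene, passed (0.0326). Fcer1g did not pass with AC CM replicate 1 alone either (0.185).

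Sialic acid enzymes, which make the ligands, are given beside all genes tested, of which 13.3% were higher and 13.3% lower. Of 8 genes of sialic acid synthesis and transport 1 was higher, 0 lower and 7 did not pass, and the higher one was Cmas, which activates sialic acid, at 0.52 (SE 0.09). Of 20 sialyltransferase genes 16 were tested, 3 were higher, 3 lower and 10 did not pass. St6galnac2 rose by 1.55 (SE 0.20), St3gal5, the ganglioside GM3 synthase gene, by 0.52 (SE 0.08), while St3gal1 was at -0.60 (SE 0.09) and St6galnac6 at -0.61 (SE 0.08). St6gal1, which makes the 2,6 linkage bound by CD22, was at -0.31 (SE 0.12, adjusted p = 0.0914). Of 7 genes for sialidases and sialic acid O-acetylation 5 were tested and 1, the O-acetyltransferase gene Casd1, was higher at 0.53 (SE 0.07). The esterase gene Siae, at -0.15 (adjusted p = 0.236), passed at -0.23 (adjusted p = 0.0175) once C CM replicate 1 was left out, which brought that list to 2 calls. With AC CM replicate 1 as the only AC CM library, Cmas (adjusted p = 0.116), St3gal1 (0.0762), St3gal5 (0.0618) and Casd1 (0.0706) did not pass.

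Of 8 genes for sialylated proteins that Siglecs or other lectins can bind, 7 were tested, 5 were lower, 1 higher and 1 did not pass. Cd24a, the gene of the Siglec-G ligand CD24, was at -2.19 (SE 0.17), Spn (CD43, a ligand of Siglec-1) at -1.72 (SE 0.15) and Cd52 at -0.57 (SE 0.06). These are also genes of lymphocytes and granulocytes. Of 12 other sialic acid binding or paired immunoglobulin-like receptors 11 were tested, 3 were higher, 2 lower and 6 did not pass. Lilrb4a rose by 1.59 (SE 0.12), Cd200r1 by 0.58 (SE 0.08) and Sirpa, the receptor of CD47, by 0.40 (SE 0.05), while Pecam1, an adhesion receptor gene, was at -1.92 (SE 0.12) and Pirb at -0.27 (SE 0.06). Pirb encodes an inhibitory myeloid receptor, as do the 3 genes that rose. With AC CM replicate 1 as the only AC CM library, Sirpa (log2 fold change 0.38), Cd200r1 (0.56), Cd52 (-0.52) and Pirb did not pass. Mag, the Siglec of myelin and the neighbour of Cd22, stood at 4.11 CPM after AC CM and 5.19 CPM after C CM (adjusted p = 0.210).

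Because Siglec1 is interferon-inducible, 20 type I interferon response genes were read beside it. Of these 6 were lower, 1 higher and 13 did not pass, with a median log2 fold change of -0.13. Ifit2 was at -0.83 (SE 0.09), Ifi44 at -0.57 (SE 0.07) and Ifit3 at -0.44 (SE 0.07), while Xaf1, a pro-apoptotic gene, rose by 1.11 (SE 0.08). Ifi44 (adjusted p = 0.0627) and Ifit3 (0.146) did not pass with AC CM replicate 1 alone. Their part in the value of Siglec1 was not tested.

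The genes whose profile over the 6 libraries was most like that of each called Siglec gene were found by the root mean square difference of log2(CPM + 0.5), after centring each gene. These genes were picked by likeness over the same 6 libraries, so their shared direction and similar size follow from that choice and are no independent result. For Siglec1 they were Plcb3, a phospholipase C gene, at 0.0138, and Tbc1d9b and Rgs3, a regulator of G protein signalling, at 0.0181 each. Siglece was nearest to Wfdc17 (0.104), Mtmr14 (0.110) and Tnfrsf14, the receptor gene HVEM (0.111). Siglech was nearest to Slit1 (0.0901), Ypel3 (0.150) and Fgr (0.174). Siglecf was nearest to Itgax (0.247), which encodes CD11c, Cd24a (0.253) and the potassium channel gene Kcnj10 (0.267). Siglech and Siglecf averaged 0.363 and 0.229 CPM after AC CM, below the 0.5 CPM added before taking logs, so their own differences are shrunk in this measure. Their fitted log2 fold changes of -2.46 and -3.25 were larger in size than those of the genes matched to them, which were -1.71, -1.49 and -1.44 for Siglech and -1.94, -2.19 and -1.64 for Siglecf. Plcb3, Tbc1d9b and Rgs3 were called lower at -0.30, -0.26 and -0.32, each losing the call without AC CM replicate 1, 2 or 3 (adjusted p = 0.0642 to 0.0901) and with AC CM replicate 1 alone (0.244 to 0.340).

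The authors' deposited table called 3 of the 7 genes at an adjusted p under 0.05, Siglec1 (log2 fold change -0.28), Siglece (-1.11) and Siglech (-2.46), where it called 18.7% of its 27127 genes with a p. In the authors' deposited table Siglecf was at -3.24 with an adjusted p of 0.0846, and Cd33 at 0.29 with 0.0616.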

How the data were processed

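Libraries were made from total RNA with an mRNA kit and sequenced on an Illumina instrument, per the labels' protocols. The table deposited by the authors holds raw read counts per gene, normalized signal that equals those counts divided by a constant per sample (deposited, not used for tests), and the authors' log2 fold changes with p-values. HISAT2 2.1.0, fastp 0.17.1, R 3.4.3 and DESeq2 1.18.1 are named, without roles, per the submitters' processing notes, while counter, strand setting and build are not given. Of the 52550 identifiers 49035 were in GENCODE M21 (GRCm38), 100.0% of them at the same coordinates, and exon lengths come from it.

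Counts were filtered with filterByExpr, scaled by TMM and tested with edgeR 4.0.16's robust quasi-likelihood test in R 4.3.3, on group alone, with Benjamini-Hochberg adjustment over 17863 genes. CPM uses TMM-scaled library sizes. Counts of 4 were more frequent (696 to 814 genes a library) than counts of 3 (394 to 446), so counts may overstate independent fragments. The procedure was tested on simulated counts. Alternatives were DESeq2 1.42.0, limma 3.58.1 voom, other scalings and filters, a replicate block, the 20 most counted genes left out, counts divided by 4 and libraries left out. Profiles were compared with a pseudocount of 0.5 CPM among genes of at least 5 CPM. Alignments used Biopython 1.88.

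Members and lists were chosen with earlier results of these data known. Genes named were the 7 Siglec genes, up to 4 per pathway list with the smallest p, up to 3 per marker list with the highest CPM (with defining markers of B cells, plasmacytoid dendritic cells, eosinophils and neutrophils), and the 3 most like each called gene. Alb was named by that rule. Ptpn6, Ptpn11, Inpp5d, St6gal1, Mag, Gm29439, Nkg7, Zfp658, Spib, Ear6, Fabp1, Krt19, Slc39a2, Vcan and Pirb fall outside it. They were picked with their values in view. Some genes the rule names are not reported here.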

Additional observations from a re-analysis of the deposited data

How the results depend on the processing

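Of the 16 alternatives to the reported fit, none turned the direction of any of the 7 Siglec genes. Siglech passed in 16, Siglece in 15, Siglec1 in 13, Siglecf in 9, Cd33 in 1 and Siglecg and Cd22 in 0. Leaving out 1 replicate at a time gave 3158 to 5023 genes called, against 4741, and 3 Siglec genes called each time, against 4. With AC CM replicates 2 and 3 left out, 1274 genes and 2 Siglec genes (Siglecf and Siglech) were called; this fit has fewer samples. In it the lists held 0 calls for sialic acid synthesis, sialidases and eosinophils, 1 each for ITIM enzymes, DAP12 partners, mast cells and microglia, 2 each for sialyltransferases, other receptors and macrophages, 3 for interferon genes and 4 for B cells. Labels number the replicates alike in both groups without saying that a number marks a shared source. Same-numbered libraries deviated from their group means with correlations of -0.116, -0.0306 and -0.0135, so no pairing by number was visible. With 3 libraries per group, these correlations cannot exclude a shared source. A fit with the replicate number as a block called 4397 genes and 3 Siglec genes, Siglecf being at -3.60 (adjusted p = 0.139), and brought sialic acid synthesis to 2 calls with Cmah at -0.66 (adjusted p = 0.0405). Limits of depth touch Siglecf, Siglech and Siglecg, with at most 186 counts in a library. Of the other named genes' results under the alternatives, 45 lost and 8 gained a call and 1254 did neither. Macrophage markers called were 3 without AC CM replicate 1 or 2 or C CM replicate 2, chondrocyte markers 1 without C CM replicate 3, hepatocyte markers 2 without AC CM replicate 1 and 4 by DESeq2, and B cell markers 5 with a filter of 1 CPM in 3 libraries or with counts divided by 4. Levels per kilobase with the longest coding transcript as the length moved by more than the spread in 9 of 14 values.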
